A study of Mus musculus with 8 samples.

Results

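The genes described here are 10 that act around the TREM and CD300 receptors of myeloid cells: the receptors *Trem2*, *Trem1*, *Treml2*, *Cd300a*, *Cd300lb*, *Cd300lf* and *Cd300ld*, the adaptors *Tyrobp* and *Hcst*, and the kinase *Syk*. They were chosen by symbol, with earlier results of these data known but with no threshold on a measured value, from 55573 genes in a count table of sorted mouse microglia. All 10 were found and all 10 were among the 20153 genes tested. TREM and CD300 receptors carry a single immunoglobulin domain outside the cell and recognize lipids, lipoproteins, dying cells and microbial products. Most activating members have no signaling tail of their own and pair in the membrane with DAP12 (encoded by *Tyrobp*), which recruits the kinase SYK through a tyrosine motif called an ITAM, or with DAP10 (encoded by *Hcst*), which recruits phosphoinositide 3-kinase, whereas inhibitory members hold ITIM motifs that recruit phosphatases. In the brain, TREM2 with DAP12 is best known for driving the response of microglia to amyloid, myelin debris and lipids.

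Microglia were sorted by flow cytometry from the brains of 4 mutant and 4 control mice at postnatal day 60, and each mouse gave 1 RNA-seq library. The mutants were *Smad2/3* fl/fl;*Cx3cr1* Cre, in which floxed *Smad2* and *Smad3*, the transcription factors of canonical TGFβ signaling, are removed by Cre made from the *Cx3cr1* gene, which is active in microglia and related macrophages. The labels call the controls wild-type littermates, whereas the Methods state that controls generally carried Cre and a floxed allele, so the control genotype is not settled by the sources used here. The comparison asked which genes changed in microglia when canonical TGFβ signaling was interrupted. The labels tie no library to a sex, litter or sequencing run.

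Libraries held 35639502 to 41946479 counts on genes. *Smad3* was 48.6 ± 7.12 CPM in controls and 19.3 ± 11.0 CPM in mutants (SD, n = 4 each, CPM being counts scaled to library size after TMM normalization; log2 fold change -1.33, standard error 0.36, adjusted p = 0.0429), a call lost in 7 of the 8 fits that left out 1 mouse, and *Smad2* was 74.5 ± 13.8 CPM against 58.7 ± 14.9 CPM (adjusted p = 0.340), with reads counted over whole genes. The summed level of 8 microglial markers was 22500 to 34294 CPM in controls and 1942 to 2560 CPM in mutants, with 8 of 8 lower, and that of 8 markers of border-associated macrophages was 33.6 to 47.9 CPM and 1620 to 2496 CPM, with 6 of 8 higher. Markers shared by both cell types summed to 24389 to 38930 CPM and 17638 to 22761 CPM, with 3 of 8 lower, and no marker of these 3 lists was at 0 in all libraries. *Xist* was 99.3 to 183 CPM in controls and 0.0276 to 0.561 CPM in mutants and the Y-linked *Ddx3y* 0.0269 to 0.224 CPM and 9.73 to 59.7 CPM, so sex-linked expression split as genotype did and the 2 cannot be told apart; none of the 10 genes lies on a sex chromosome. In RNA of bulk samples, fewer cells of a type and less RNA per cell cannot be told apart either.

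The 10 genes did not move as a block. *Hcst* and *Cd300ld* were higher in mutants and *Trem2* and *Treml2* were lower, by edgeR's quasi-likelihood test at an adjusted p under 0.05, while *Tyrobp*, *Trem1*, *Cd300a*, *Cd300lb*, *Cd300lf* and *Syk* were not called. These were 2 genes higher and 2 lower out of 10, beside 4.36% higher and 7.97% lower (12.3% in all) of the genes tested. For the same 4 genes the mutant and control libraries did not overlap in CPM, a separation seen upward in 9.04%, downward in 13% and either way in 22.1% of the genes tested. The median log2 fold change was 0.095 over the 10 genes and 0.011 over all genes tested.

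**Figure D1:**
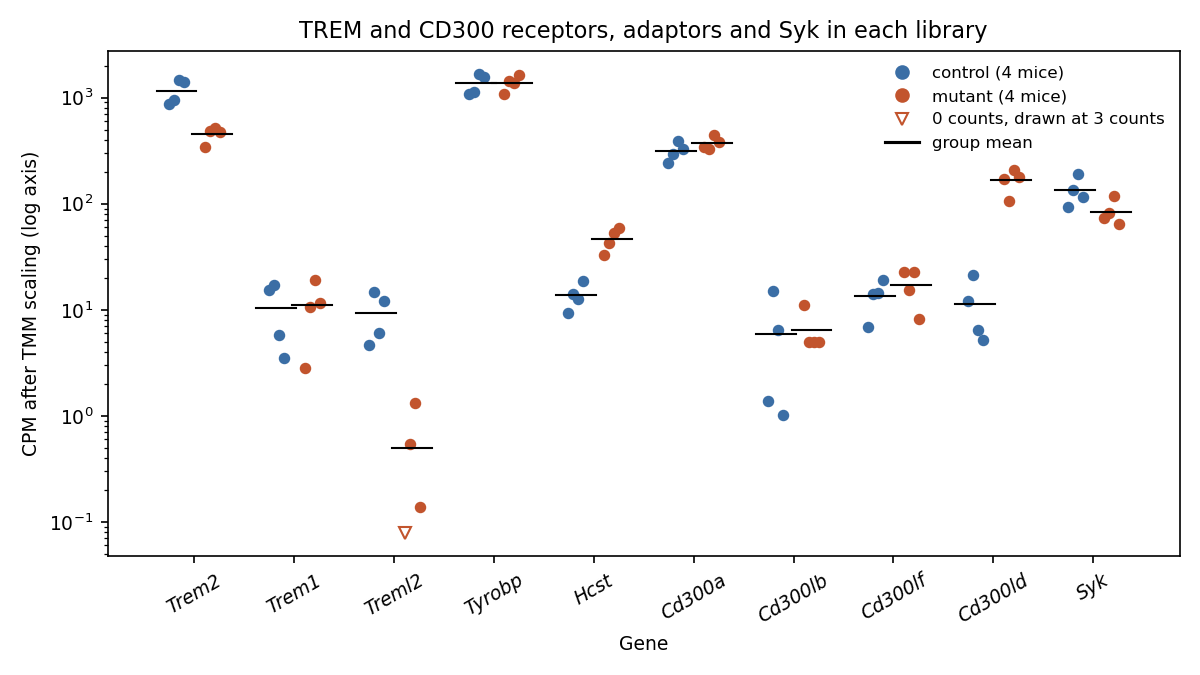
CPM of each of the 10 genes in each library, on a log axis, with blue points for controls, red points for mutants and a black line for the mean of 4 mice. The open triangle is the mutant library with 0 counts of *Treml2*, drawn at the level of 3 counts (0.0778 CPM). The mutant and control points are apart for *Trem2*, *Treml2*, *Hcst* and *Cd300ld*, and overlap for the other 6 genes.

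Of the TREM receptors, *Trem2* lost most of its transcript and *Treml2* nearly all of it, while *Trem1* varied between mice of both groups. The 3 genes lie in a cluster on chromosome 17. *Trem2* (ENSMUSG00000023992, chr17:48346401-48354147 of GRCm38, plus strand), the lipid and lipoprotein receptor that signals through DAP12, had 869, 939.6, 1452 and 1389 CPM in control mice 1 to 4 and 341, 488, 514 and 476 CPM in mutant mice 1 to 4. The highest mutant was below the lowest control. The level was 2.56-fold lower in mutants, 455 ± 77.5 CPM against 1162 ± 301 CPM (SD, n = 4 each; log2 fold change -1.35, standard error 0.23, adjusted p = 0.00496, 95% interval -1.86 to -0.85). The adjusted p in edgeR's test stayed under 0.05 in all 8 fits that left out 1 mouse, with log2 fold changes of -1.47 to -1.21. The microglial markers fell over the same libraries, and their part in the fall of *Trem2* was not tested.

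*Treml2* (ENSMUSG00000071068, chr17:48299498-48312533, plus strand), a TREM-like receptor of myeloid and B cells that lacks the charged residue needed to pair with DAP12, had 4.65, 14.7, 5.98 and 12.2 CPM in control mice 1 to 4 and 0, 0.539, 1.31 and 0.138 CPM in mutant mice 1 to 4. Counts ran from 180 to 564 in controls, and were 0, 25, 47 and 5 in mutants. The groups did not overlap, although the controls themselves spanned a range of over 3 to 1. The level was 18.8-fold lower in mutants (log2 fold change -4.23, standard error 1.06, adjusted p = 0.0329, 95% interval -6.64 to -1.83). This call rested on the full set of mice, since the adjusted p in edgeR's test passed 0.05 in 5 of the 8 fits that left out 1 mouse (control mice 2, 3 or 4, or mutant mice 2 or 4), reaching 0.0900 without control 2. Without mutant 3, the library with 47 counts, the log2 fold change was -5.32.

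*Trem1* (ENSMUSG00000042265, chr17:48232768-48246924, plus strand), a DAP12-paired receptor that amplifies inflammatory signals in neutrophils and monocytes, had 15.5, 17.0, 5.73 and 3.49 CPM in control mice 1 to 4 and 2.85, 10.6, 18.9 and 11.5 CPM in mutant mice 1 to 4. The groups overlapped throughout, with low and high libraries in each. Its log2 fold change was 0.072 (95% interval -1.35 to 1.49, edgeR adjusted p = 0.959), an interval that holds both a large fall and a large rise. The summed level of 10 neutrophil markers was 1370, 2419, 889 and 544 CPM in control mice 1 to 4 and 300.0, 754, 879 and 816 CPM in mutant mice 1 to 4, with 1 of the 10 called lower and none higher, so control mice 1 and 2 were the highest controls and mutant 1 the lowest mutant for both *Trem1* and these markers. Their part in the spread of *Trem1* was not tested.

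The upstream sequence of *Trem2* is shown because its transcript fell while that of its partner *Tyrobp* did not. The window is the stretch of 250 bases before the RefSeq start (chr17:48346151-48346400 of GRCm38.p6, plus strand), written 5′ to 3′, and capitals mark the letters GAGGAA or their reverse complement TTCCTC, the core that the myeloid factor PU.1 is known to bind.
*Trem2*: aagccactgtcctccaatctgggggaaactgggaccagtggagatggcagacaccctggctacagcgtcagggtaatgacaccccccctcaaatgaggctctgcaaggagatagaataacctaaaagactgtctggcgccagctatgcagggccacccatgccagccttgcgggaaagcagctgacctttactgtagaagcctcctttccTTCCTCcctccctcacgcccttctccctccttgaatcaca
The core stood 34 bases before the start of *Trem2*. The window also held CAGAC, the letters of the SMAD box, on either strand at 2 places. TGANTCA, a loose form of the AP-1 site, was at 1 place, with the letters TGAATCA. The letters GAGGAA on either strand were in 23.3% of 32851 RefSeq windows of the same length, CAGAC in 42.2% and TGANTCA in 6.75%, so matches of the first 2 are common. A match is a description of the letters and not of binding.

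**Figure D2:**
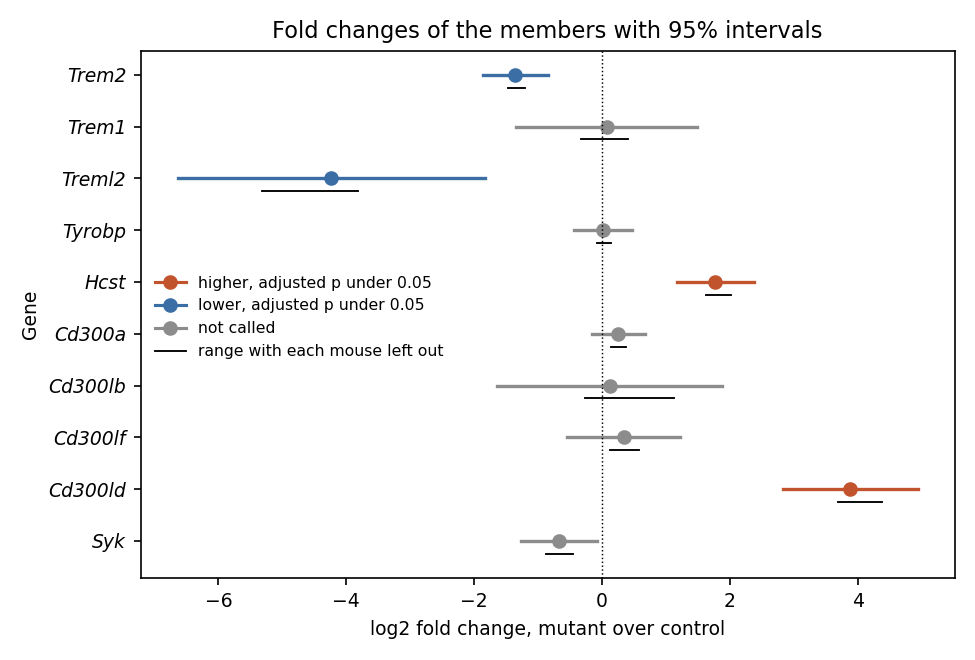
Log2 fold change of mutants over controls for the 10 genes (points) with 95% intervals (colored lines), and the range of the estimates when each mouse was left out (thin black lines). *Trem2* and *Treml2* lie below 0 and *Hcst* and *Cd300ld* above it, while the intervals of *Trem1* and *Cd300lb* span more than 1 log2 unit on both sides.

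Of the CD300 receptors, *Cd300ld* rose from one of the scarcer transcripts to one of the abundant ones, and the other 3 were not called. All 4 lie in a cluster on chromosome 11. *Cd300ld* (ENSMUSG00000034641, chr11:114982274-114989922, minus strand), an activating receptor of myeloid cells also known as CLM-5 that pairs with the Fc receptor gamma chain, had 12.1, 21.1, 6.51 and 5.21 CPM in control mice 1 to 4 and 172, 107, 207 and 177 CPM in mutant mice 1 to 4. Every mutant was at least 5 times above every control. The level was 14.8-fold higher in mutants, 166 ± 42.1 CPM against 11.2 ± 7.21 CPM (SD, n = 4 each; log2 fold change 3.88, standard error 0.47, adjusted p = 9.79e-04, 95% interval 2.83 to 4.94), and the call held in edgeR's test with each mouse left out (log2 fold changes of 3.69 to 4.38). Of its 50-base words, 3.89% are shared with transcripts of other genes, mainly its neighbors in the cluster. The macrophage markers named above rose over the same libraries, and their part in the rise was not tested.

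*Cd300a* (ENSMUSG00000034652, chr11:114890041-114904654, plus strand), an inhibitory receptor with ITIM motifs that binds phosphatidylserine and phosphatidylethanolamine on dying cells, had 239, 295, 388 and 331 CPM in control mice 1 to 4 and 345, 328, 442 and 383 CPM in mutant mice 1 to 4. The groups overlapped, with the lowest mutant below the 2 highest controls. Its log2 fold change was 0.26 (95% interval -0.15 to 0.67, edgeR adjusted p = 0.397).

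*Cd300lf* (ENSMUSG00000047798, chr11:115116214-115133992, minus strand), a mainly inhibitory receptor for ceramide and phosphatidylserine known as the entry receptor of murine norovirus, had 6.92, 14.1, 14.4 and 19.1 CPM in control mice 1 to 4 and 22.9, 15.3, 22.7 and 8.19 CPM in mutant mice 1 to 4. Its groups overlapped as well, since mutant 4 was below 3 of the controls (log2 fold change 0.34, 95% interval -0.54 to 1.23, edgeR adjusted p = 0.622).

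*Cd300lb* (ENSMUSG00000063193, chr11:114922781-114934386, minus strand), an activating receptor that pairs with DAP12, had 1.39, 15.0, 6.48 and 1.02 CPM in control mice 1 to 4 and 11.0, 4.92, 5.01 and 4.96 CPM in mutant mice 1 to 4. Controls held both the lowest libraries and the highest one, and 3 of the 4 mutants were nearly equal. The log2 fold change was 0.12 (95% interval -1.65 to 1.88, edgeR adjusted p = 0.945), and it was 1.13 without control 2 and -0.27 without mutant 1.

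Counts on the nearest relatives of *Cd300ld* in the cluster rose as well. *Cd300ld2*, *Cd300ld3*, *Cd300ld4* and *Cd300ld5* encode receptors like *Cd300ld*, and all 4 were higher in mutants. *Cd300ld3* was 0.363 to 1.20 CPM in controls and 7.45 to 12.9 CPM in mutants (log2 fold change 3.50, standard error 0.43, adjusted p = 0.00102), *Cd300ld2* 0.232 to 1.27 CPM and 6.84 to 11.2 CPM (log2 fold change 3.78), and *Cd300ld4* 0.112 to 0.598 CPM and 3.53 to 6.67 CPM (log2 fold change 4.14). *Cd300ld5* had 1, 2, 0 and 1 counts in control mice 1 to 4 and 0.579 to 1.69 CPM in mutants. The groups did not overlap for any of the 4. Over all genes tested, 9.04% were separated upward in this way and 4.36% were called higher. The levels of the 4 are uncertain as values of single genes. Of the 50-base words of *Cd300ld2*, *Cd300ld3*, *Cd300ld4* and *Cd300ld5*, 31.0%, 82.1%, 93.8% and 100% occur in transcripts of other genes, mostly of each other. The 4 rises and separations may therefore not be 4 separate results. *Cd300ld* also shares words with *Cd300ld3* and *Cd300ld4*, and whether its reads were counted on them was not tested. Without control 2 the log2 fold changes were 4.41 for *Cd300ld2* and 4.77 for *Cd300ld4*.

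The upstream windows of these genes are shown because their counts rose together. They are RefSeq windows of GRCm38.p6 cut where the GENCODE transcript begins, minus strand, 5′ to 3′, with the letters GAGGAA in capitals: chr11:114989923-114990136 for *Cd300ld* (214 bases), chr11:115048410-115048580 for *Cd300ld3* and chr11:115027013-115027183 for *Cd300ld4* (171 bases each).
*Cd300ld*: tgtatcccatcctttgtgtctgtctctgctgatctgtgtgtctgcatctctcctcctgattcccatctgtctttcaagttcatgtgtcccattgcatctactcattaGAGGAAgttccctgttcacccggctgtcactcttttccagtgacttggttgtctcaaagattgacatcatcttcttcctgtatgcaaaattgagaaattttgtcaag
*Cd300ld3*: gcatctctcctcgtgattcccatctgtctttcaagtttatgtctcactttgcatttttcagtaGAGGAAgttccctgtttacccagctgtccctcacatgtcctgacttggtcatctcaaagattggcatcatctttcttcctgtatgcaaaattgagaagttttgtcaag
*Cd300ld4*: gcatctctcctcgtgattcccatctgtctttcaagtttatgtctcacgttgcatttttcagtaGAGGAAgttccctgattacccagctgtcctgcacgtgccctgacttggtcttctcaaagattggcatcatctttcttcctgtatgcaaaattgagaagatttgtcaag
The window of *Cd300ld5* was identical to that of *Cd300ld4*, and that of *Cd300ld3* matched it at 163 of 171 positions (95.3%). Aligned at the GENCODE start without gaps, *Cd300ld* matched *Cd300ld3* at 61.4% and *Cd300ld4* at 62% of 171 positions. The core GAGGAA stood at nearly the same distance before that start, 101 bases in *Cd300ld* and 102 bases in the other 3. In the uncut windows of 250 bases CAGAC was at 2 places in *Cd300ld* and at none in the other 3. Over the windows of 17 RefSeq starts of TREM, CD300, *Hcst* and *Syk* genes, GAGGAA was in 11 and CAGAC in 9. The shares over all RefSeq windows were 23.3% and 42.2%. These 17 are not independent, as the near-identical *Cd300ld* relatives are among them. Both *Syk* windows and that of *Cd300c* lay inside the gene as GENCODE draws it.

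Of 11 other TREM and CD300 family genes in the table, 4 were higher, all of them these *Cd300ld* relatives, and none lower. Of all genes tested, 4.36% were higher and 7.97% lower. The list's median log2 fold change was 0.56. At an unadjusted p under 0.05, edgeR counted 5 of the 11, beside 28.7% of all genes tested (13.1% higher and 15.6% lower), and DESeq2, which called 20.7% of the genes it tested (9.11% higher and 11.6% lower), called 5, with *Treml4* lower. *Treml4*, a receptor of splenic macrophages and dendritic cells that pairs with DAP12, was 27.7 to 46.5 CPM in controls and 11.7 to 24.3 CPM in mutants without overlap (log2 fold change -0.95, edgeR adjusted p = 0.0526). *Cd300c2*, an activating receptor next to *Cd300ld*, was abundant in both groups, at 247 to 490.5 CPM and 329 to 432 CPM (log2 fold change -0.029, edgeR adjusted p = 0.954). *Trem3*, which neighbors *Trem1* and pairs with DAP12, had a log2 fold change of -0.45 (edgeR adjusted p = 0.719) and *Cd300e*, an activating receptor of monocytes, one of 0.56 (adjusted p = 0.542).

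Genes of other families beside the clusters were counted within 200000 bases. Over all genes tested, 4.36% were higher and 7.97% lower. In the CD300 cluster 5 of 11 family genes were higher, against 0 of 12 neighbors (also 0 at an unadjusted p under 0.05 in edgeR and 0 with DESeq2), of which 1, *Tmem104*, was lower. Among the 5, *Cd300ld2* to *Cd300ld5* share 31.0% to 100% of their 50-base words with other genes, so these may not be 5 separate calls. *Cd300ld5* also passed the count filter only through the mutants, which fixed its direction. With at least 10 counts in all 8 libraries, *Cd300ld3* was the 1 relative of *Cd300ld* called higher. In the TREM cluster 2 of 6 family genes were lower, against 1 of 7 neighbors, *Unc5cl*, whose counts were 62, 417, 471 and 1172 in controls and 1, 2, 0 and 0 in mutants. At an unadjusted p under 0.05 in edgeR, 3 of these 6 and 2 of these 7 were lower, as were 3 of the 12 CD300 neighbors. DESeq2 gave the same counts. The shares lower over all genes were 15.6% at that unadjusted p and 11.6% with DESeq2. Within each cluster the genes therefore differed, with *Trem1* at 0.072 and *Treml2* at -4.23 on the log2 scale in the first, and *Cd300c2* at -0.029 between *Cd300ld* and *Cd300ld2*, at 3.88 and 3.78, in the second.

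**Figure D3:**
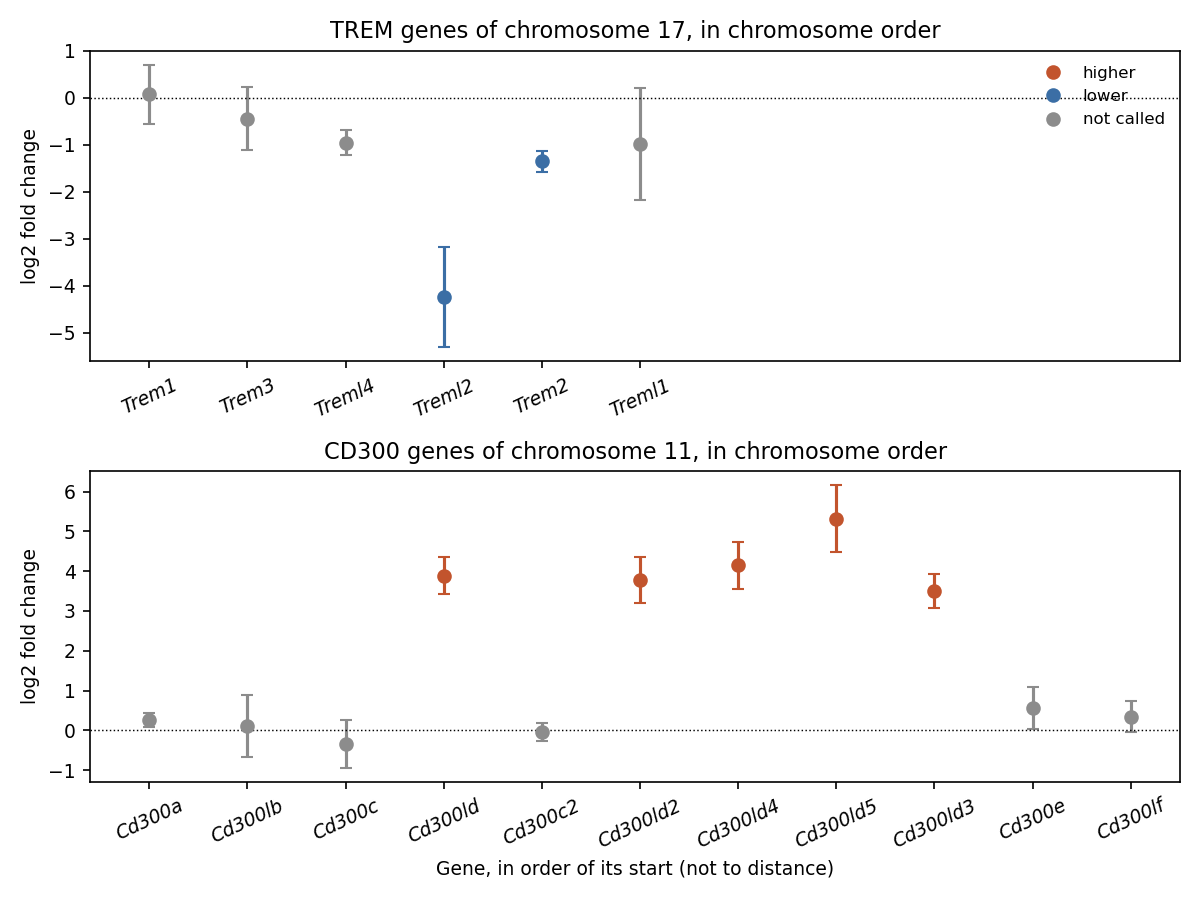
Log2 fold change of mutants over controls (points, with standard errors) for the TREM genes of chromosome 17 and the CD300 genes of chromosome 11, in the order of their starts and not to distance. The 5 *Cd300ld* genes stand between 3.50 and 5.31, the last resting on 0 to 2 counts per control library, and the other 6 CD300 genes between -0.33 and 0.56.

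The 2 adaptors differed from each other. *Tyrobp* (ENSMUSG00000030579, chr7:30413760-30417585, plus strand), which encodes DAP12, had 1089, 1124, 1679 and 1577 CPM in control mice 1 to 4 and 1091, 1429.6, 1386 and 1628 CPM in mutant mice 1 to 4. Both groups covered nearly the same range. The log2 fold change was 0.017 (standard error 0.20, edgeR adjusted p = 0.971), and its 95% interval of -0.44 to 0.48 allows a change of up to 1.39-fold either way. In the same libraries *Trem2*, a receptor it carries, was 2.56-fold lower.

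*Hcst* (ENSMUSG00000064109, chr7:30417712-30419854, minus strand), which encodes DAP10, had 9.37, 14.0, 12.7 and 18.8 CPM in control mice 1 to 4 and 32.6, 42.3, 53.2 and 59.1 CPM in mutant mice 1 to 4. Every mutant was above every control. The level was 3.42-fold higher in mutants, 46.8 ± 11.8 CPM against 13.7 ± 3.90 CPM (SD, n = 4 each; log2 fold change 1.77, standard error 0.27, adjusted p = 0.00304, 95% interval 1.17 to 2.38), and the call held in edgeR's test with each mouse left out (adjusted p of 0.00363 to 0.0132). DAP10 is best known as the partner of NKG2D in T and NK cells. The summed level of 7 T and NK cell markers was 12.4 to 48.0 CPM in controls and 54.0 to 137 CPM in mutants, with *Cd3e* and *Nkg7* higher and none lower, and their part in the rise of *Hcst* was not tested. By the Methods, CD45 and CD11b were read on tdTomato+ cells, and whether this kept T and NK cells out was not tested. *Klrk1*, which encodes NKG2D, was 0 to 2.81 CPM and 1.78 to 4.49 CPM (log2 fold change 1.16, edgeR adjusted p = 0.543).

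*Hcst* and *Tyrobp* end 126 bases apart on opposite strands of chromosome 7, and no exon of either overlaps another gene. The libraries are described as unstranded, so a read past the end of one gene could not be told from its neighbor by strand. Of 24 other tested genes within 200000 bases of the pair, 0 were called by edgeR, 4 had an unadjusted p under 0.05 and 2 were called by DESeq2, all of these higher, where the shares over all genes tested were 13.1% higher at that unadjusted p and 9.11% higher with DESeq2. The 250 bases before the RefSeq start of *Hcst* (chr7:30419855-30420104 of GRCm38.p6, minus strand) are shown beside those of *Trem2* because the 2 transcripts moved in opposite directions.
*Hcst*: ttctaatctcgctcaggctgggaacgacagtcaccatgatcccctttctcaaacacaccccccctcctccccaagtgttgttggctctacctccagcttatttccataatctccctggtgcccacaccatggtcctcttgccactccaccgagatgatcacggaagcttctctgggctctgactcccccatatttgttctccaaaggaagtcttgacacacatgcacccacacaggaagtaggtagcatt
This window held neither GAGGAA nor CAGAC nor TGANTCA on either strand, which says only that these letters are not in it.

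*Syk* (ENSMUSG00000021457, chr13:52583173-52648792, plus strand), the kinase that reads the ITAM of DAP12 and of the gamma chain, had 92.7, 134, 191 and 116 CPM in control mice 1 to 4 and 73.2, 81.0, 117 and 63.8 CPM in mutant mice 1 to 4. Mutant 3 was above 2 of the controls, and the other 3 mutants were below all 4. The log2 fold change was -0.67 (standard error 0.26, 95% interval -1.27 to -0.077) and the gene was not called (edgeR adjusted p = 0.131, 0.0855 with DESeq2).

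To compare the genes with each other, CPM was divided by exon length in kb, which is a level and not a difference. In controls the order was *Tyrobp* at 2050 CPM per kb, *Trem2* at 235, *Cd300a* at 66.1, *Hcst* at 19.0, *Syk* at 14.3, *Cd300ld* at 4.24, *Trem1* at 3.48, *Cd300lf* at 2.65, *Cd300lb* at 2.05 and *Treml2* at 1.90. The libraries of *Tyrobp*, *Trem2* and *Cd300a* did not overlap with those of the next gene, those of *Hcst* and *Syk* overlapped, and among the 5 genes from *Cd300ld* down neighbors in the order overlapped. In mutants *Tyrobp* was still first at 2074 CPM per kb, followed by *Trem2* at 92.0, *Cd300a* at 79.1, *Hcst* at 64.8 and *Cd300ld* at 62.6, and neighbors among these 4 overlapped. *Cd300ld* did not overlap with *Syk* at 8.95, nor *Syk* with *Trem1* at 3.66, while *Cd300lf* at 3.35 and *Cd300lb* at 2.22 overlapped with their neighbors above, and *Treml2* was last at 0.101, below all libraries of *Cd300lb*.

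The makeup of the 7 listed receptors therefore differed between the groups. Other family genes stand outside these shares, among them *Cd300c2*, at 397 CPM in controls and 389 CPM in mutants over 1275 exon bases. Per length its mean is above that of *Trem2*, which has 4946 exon bases, in both groups. *Trem2* made up 68.6% to 78.0% of the summed CPM per kb of the 7 receptors in controls and 31.9% to 45.6% in mutants. *Cd300ld* made up 0.547% to 2.88% in controls and 18.7% to 30.1% in mutants, and *Cd300a* 19.4% to 22.5% and 31.9% to 33.7%. Shares of a sum are tied to each other, and the level of *Cd300a* itself overlapped between groups and was not called. The other 4 receptors held at most 2.19% each in any library. The sum itself overlapped between groups, at 239 to 386 CPM per kb in controls and 216 to 288 in mutants. In mutants the shares of *Trem2* and *Cd300a* overlapped, and those of *Cd300ld* were below both.

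**Figure D4:**
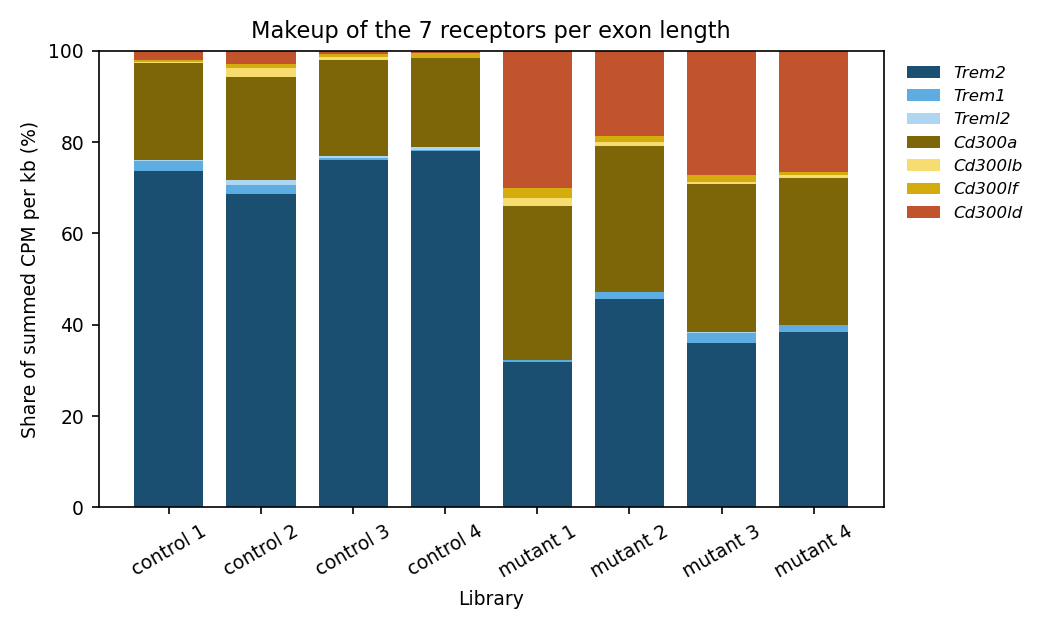
Share of each of the 7 receptors in their summed CPM per kb of exon, in percent, with 1 stacked bar per library. *Trem2* is the largest share in the 4 control bars, and in the 4 mutant bars *Trem2*, *Cd300a* and *Cd300ld* take 31.9% to 45.6%, 31.9% to 33.7% and 18.7% to 30.1%.

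Set against *Tyrobp* in the same library, per length, *Trem2* was 0.108 to 0.119 of it in controls and 0.0394 to 0.050 in mutants. The control ratios were close to each other although *Trem2* itself spanned 869 to 1452 CPM in those mice. *Hcst* was 0.00697 to 0.0115 of *Tyrobp* in controls and 0.0273 to 0.0355 in mutants. *Cd300ld* was 0.00701 to 0.0419 of *Trem2* in controls and 0.410 to 0.944 in mutants. None of these ratios overlapped between groups. For *Cd300ld* over *Trem2* this was fixed by the separation of both genes in opposite directions. *Trem2* and *Hcst* were also separated on their own and *Tyrobp* was not called, so the ratios add no separate result.

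Other receptors that use DAP12, DAP10 or the Fc receptor gamma chain were read from the same fit. Of 19 listed genes 16 were tested, with 5 higher and 1 lower, beside 4.36% higher and 7.97% lower of all genes tested. The list's median log2 fold change was 0.96, beside 0.011 over all genes tested. *Clec4n*, which encodes the fungal receptor Dectin-2, was 1.80 to 4.44 CPM in controls and 190.2 to 408 CPM in mutants (log2 fold change 6.71, standard error 0.43, adjusted p = 4.83e-05), and *Lilra5*, an activating immunoglobulin-like receptor, 6.10 to 19.1 CPM and 288 to 476 CPM (log2 fold change 4.89, standard error 0.41, adjusted p = 1.44e-04). *Clec4d*, a second C-type lectin, had a log2 fold change of 3.63 (edgeR adjusted p = 0.0494), which was 4.90 without control 2, and its adjusted p ran from 0.0232 to 0.131 with each mouse left out. The paralogs *Pilrb1* and *Pilrb2*, which pair with DAP12, completed the rises, at log2 fold changes of 3.44 and 3.19. *Siglech*, a DAP12-paired lectin that is also one of the microglial markers, fell from 1687 to 2948 CPM to 4.41 to 38.7 CPM (log2 fold change -6.64, standard error 0.69, adjusted p = 4.46e-04). *Fcer1g*, the gamma chain itself and partner of *Cd300ld*, was 842 to 1415 CPM in controls and 955 to 1601 CPM in mutants and was not called (log2 fold change 0.25, edgeR adjusted p = 0.517), as *Tyrobp* was not.

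Below the adaptors, 17 of 36 listed genes that signal with SYK were lower and 1 was higher, beside 7.97% and 4.36% of all genes tested. The list's median log2 fold change was -0.87, beside 0.011 over all genes tested. The largest falls among the calls were those of *Plcg1*, phospholipase Cγ1, from 30.6 to 41.8 CPM to 2.87 to 5.27 CPM (log2 fold change -3.09, standard error 0.24, adjusted p = 9.76e-05), *Pik3r5*, a regulatory subunit of phosphoinositide 3-kinase γ (log2 fold change -2.49), and *Blnk*, a scaffold phosphorylated by SYK (log2 fold change -1.96). *Plcg2*, the phospholipase that TREM2 signals through in microglia, fell from 116 to 207 CPM to 26.9 to 71.4 CPM (log2 fold change -1.83, standard error 0.32, adjusted p = 0.00605), and *Lyn*, a Src family kinase that phosphorylates ITAM and ITIM motifs, from 467 to 710.5 CPM to 202 to 319 CPM (log2 fold change -1.22, standard error 0.20, adjusted p = 0.00474). *Vav3*, a guanine nucleotide exchange factor, was the 1 gene higher, at 1.59 to 4.60 CPM in controls and 14.3 to 30.2 CPM in mutants (log2 fold change 2.85, standard error 0.43, adjusted p = 0.00320). *Zap70*, the relative of SYK in T and NK cells, was 0.572 to 2.63 CPM and 1.02 to 4.10 CPM (edgeR adjusted p = 0.375).

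Of 9 genes for phosphatases, other brakes and the enzymes that shed TREM2, 3 were lower and none higher. Of all genes tested, 7.97% were lower and 4.36% higher. The list's median log2 fold change was -0.48. edgeR counted 5 of the 9 at an unadjusted p under 0.05, beside 28.7% of all genes tested, and DESeq2 called 4, all lower, beside 11.6% lower of the genes it tested. *Inpp5d*, which encodes the lipid phosphatase SHIP1 that restrains signaling at DAP12, fell from 394 to 652 CPM to 111 to 169 CPM (log2 fold change -1.97, standard error 0.24, adjusted p = 9.69e-04). *Ptpn6*, the phosphatase SHP-1 recruited by ITIM receptors such as CD300A, fell by 0.87 on the log2 scale (adjusted p = 0.0140 in edgeR's test), and *Csk*, a kinase that inhibits Src family kinases, by 0.80 (adjusted p = 0.0124). The sheddase genes *Adam10* and *Adam17* were not called, at log2 fold changes of -0.48 (edgeR adjusted p = 0.225) and -1.04 (adjusted p = 0.0578).

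Genes known from the TREM2-dependent stage of disease-associated microglia went both ways, with 4 higher and 3 lower of 13. Of all genes tested, 4.36% were higher and 7.97% lower. The list's median log2 fold change was -0.13, beside 0.011 over all genes tested. *Axl*, a receptor for apoptotic cells, was 13.4 to 25.1 CPM in controls and 382 to 551 CPM in mutants (log2 fold change 4.68, standard error 0.28, adjusted p = 4.19e-05). *Gpnmb* and *Lilrb4a* followed, at log2 fold changes of 4.28 and 3.65, and *Clec7a*, the β-glucan receptor Dectin-1, was the fourth at 2.47. *Gpnmb* was at most 3.36 CPM in controls, its log2 fold change was 5.22 without control 1, and its call was lost without control 2, control 3 or mutant 2 (adjusted p of up to 0.0670 in edgeR's test). *Csf1*, a growth factor of microglia, *Ctsl*, a lysosomal protease, and the tetraspanin *Cd9* fell, by 2.46, 1.47 and 1.37 on the log2 scale.

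**Figure D5:**
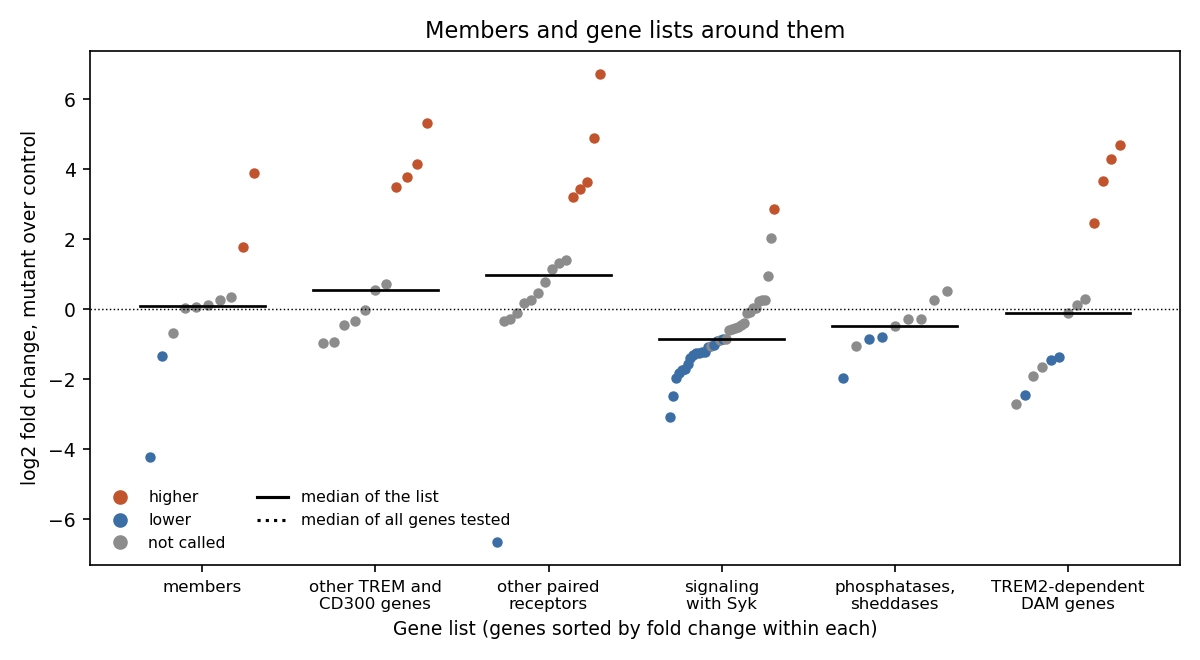
Log2 fold change of mutants over controls for each tested gene of the 10 members and of 5 gene lists around them, sorted within each list, with a black line at the list's median and a dotted line at the median of all genes tested. The signaling list lies mostly below 0 (median -0.87), and the paired receptors hold both the highest point, *Clec4n* at 6.71, and the lowest, *Siglech* at -6.64.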

How the data were processed

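The Methods describe alignment of the reads to mm10 with Rsubread and counting on genes with featureCounts, and the authors deposited the raw counts per gene without normalization. The counting annotation, versions and strand setting are not given in the sources used here; the labels name Nextera XT single-end libraries and the Methods NEBNext Ultra II paired-end libraries, both unstranded. A second deposited table, of the authors' DESeq2 1.28 comparison, was not used. Since the Methods place the *Smad2/3* data in a different deposit, the libraries were matched to that experiment by genotype and cell type.

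Groups and replicate numbers came from the sample titles. Counts were tested in edgeR 4.0.16 (R 4.3.3) with TMM scaling, glmQLFit and glmQLFTest, without a block, over the 20153 genes that reached 10 counts in 4 or more of the 8 libraries, with Benjamini-Hochberg adjustment over all of them. The biological coefficient of variation was 0.541, so spread between mice set the precision, and all library pairs of a group differed by more than counting noise (the smallest chi-square per gene was 108). P-values set the difference between groups against the spread between mice within a group, and cannot tell genotype from sex. On simulated data with 200 of 19347 genes changed by 2 on the log2 scale, edgeR recovered 59% for this comparison, and 4.07% of its 123 calls were false. Exon lengths, positions and overlaps came from GENCODE M21 on GRCm38, and promoter windows from RefSeq, which matched *Trem2*, *Trem1*, *Hcst*, *Syk* and the 4 CD300 members but not *Tyrobp* or *Treml2*. No exon of the 10 genes was shared with another gene. A floor of 3 counts stands for a count of 0 and covers counting error only.

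The members and gene lists were chosen with earlier results of these data known. Named genes were the members, *Smad2*, *Smad3*, *Xist*, *Ddx3y*, the 3 largest rises and falls among each list's calls, and 10 genes fixed by name; *Klrk1*, *Treml4*, *Cd300c2* and *Cd300ld3* were named, as were *Pilrb1*, *Pilrb2*, *Cd3e*, *Nkg7*, *Tmem104*, *Unc5cl* and *Clec7a*, after their values were seen. Alternatives were DESeq2 1.42.0, RLE factors, library totals, no filter, at least 10 counts in all 8 libraries, autosomal genes only, a block for the replicate number, and omission of single mice in turn.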

Additional observations from a re-analysis of the deposited data

Results flagged for a closer look

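In 84 groups of 4 libraries the lowest or highest library was set against the other 3, and chance alone flags about 1 group in 20. The level of *Cd300lb* in mutant 1 was 11.0 CPM, far from 4.92 to 5.01 CPM in the other mutants, with a gap of 0.986 of the group's range. *Xist* was 0.561 CPM in mutant 2, against 0.0276 to 0.0835 CPM in the other mutants, with a gap of 0.895 of the range, and at least 99.3 CPM in controls. In that library *Ddx3y* was 9.73 CPM, the lowest of the mutants.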

How the results depend on the processing

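The 4 member calls were the same in number under DESeq2, RLE factors, library totals, no filter and autosomal genes only. Library totals moved the median log2 fold change of all genes by 0.12, and no member changed side or sign under that scaling. With at least 10 counts in all 8 libraries *Treml2* was not tested, which left 3 members called, and of the other TREM and CD300 cluster genes 2 were called, *Cd300ld3* higher and *Treml4* lower. DESeq2 called 4751 genes in all (20.7% of those it tested), against 2485 by edgeR. With each mouse left out, edgeR called 1567 to 2499 genes (1572 without control 2 and 1567 without control 3), and the members called numbered 3 to 4. The log2 fold change of *Treml2* then ran from -5.32 to -3.82, and those of uncalled members crossed 0 for *Trem1* (-0.32 to 0.41), *Tyrobp* (-0.078 to 0.14) and *Cd300lb* (-0.27 to 1.13). That of *Trem3* ran from -1.27 without mutant 4 to 0.048 without control 2. With the replicate number as a block, *Syk* was called lower at a log2 fold change of -0.66 (edgeR adjusted p = 0.0376), and 2383 genes (11.8%) were called in all. The labels do not say what the numbers pair, and same-numbered libraries deviated together with correlations of 0.166, 0.018, 0.144 and 0.114 across genes, the libraries numbered 2 deviating most like those numbered 1, so the block was not used as a design. The cause of these shifts was not tested. Under longest transcript lengths the mean shares of the 7 receptors moved by less than 1 SD.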
